A study of Homo sapiens with 6 samples.

Results

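The 10 genes described here encode ETS transcription factors of endothelium and blood, ETV2, ERG, FLI1, ETS1, ETS2, ELK3, ETV6, SPI1, ELF1 and GABPA. They were found by symbol among the 58364 rows of an RNA-seq table that held values, each on 1 row, and all 10 passed the filter on low values that left 15895 rows for testing. ETS factors share a DNA-binding domain that recognizes a core of GGAA. In the embryo ETV2 opens the endothelial and blood programme for a short time, after which ERG, FLI1 and ETS1 hold the endothelial state, while SPI1 (PU.1) drives myeloid and lymphoid differentiation and is kept low in red cells. ELK3 and ETV6 act mainly as repressors, and ELF1 and GABPA are widely expressed activators.

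The libraries came from the human embryonic stem cell line H1, collected at day 8 of stepwise differentiation toward blood, and all were cultured under the same protocol with activin A and BMP4 and then VEGF and bFGF. The groups compared were WT H1 (2 libraries, WT-1 and WT-2) and MSX2-/- H1 (4 libraries), and the question was how loss of the homeobox factor MSX2 changes expression in CD31+ cells, the population that holds endothelium and the first blood cells. In the labels CD31+ is written for MSX2-/- alone, whereas the study's text speaks of both genotypes. The MSX2-/- lines were made with a lentiviral Cas9 and a guide against exon 2, and each line, named 1# and 2#, is a single clone with replicates 1 and 2 (written 1#-1, 1#-2, 2#-1 and 2#-2). It is not stated that the WT cells received vector or selection, and the labels also mention HAND1 overexpression without saying where. Replicates 1 and 2 carry different set letters in the labels, with no meaning given. The study speaks in general of independent experiments for its analyses, but nothing says of these replicates that they were separate cultures, so p-values measure only the spread between these libraries.

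Values are FPKM, fragments scaled to transcript length and to the mapped fragments of the library, so levels can be set side by side between genes. The libraries summed to 555286 to 617120 FPKM, with 13366 to 14222 rows at 1 FPKM or more, and the relative depth read from the lowest values was 1 to 1.18 times that of WT-1. The number of reads is unknown. MSX2 itself was at 3.64 and 1.44 FPKM in WT and at 5.62 to 31.8 FPKM in the 4 libraries labelled MSX2-/-, so its RNA level does not check those labels, and every direction below is for libraries so labelled. The 7 endothelial markers fixed for these cells (PECAM1, CDH5, KDR, TIE1, TEK, ESAM and EMCN) lay between 23.3 and 779 FPKM in every library. Of the progenitor markers CD34 lay between 161 and 269 FPKM, and PTPRC (CD45) was below 1 FPKM in all 6. In bulk RNA, fewer cells of a type and less RNA per cell cannot be told apart.

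The regulatory context of 3 of the genes is shown because they had the largest differences between genotypes by size (ELK3 and ETV2) or the smallest adjusted p (ERG). The stretches are the 250 bases before a RefSeq start (build GRCh38.p14), written 5′ to 3′ on the gene's strand, and none overlaps an exon in GENCODE 29. Capitals mark an ETS-type motif, CAGGAAG or its reverse complement CTTCCTG, and a GATA-type motif, AGATAA or its reverse complement TTATCT. These motifs do not overlap in the stretches shown. The ERG stretch lies at chr21:38498505-38498754 on the minus strand, inside the gene, before an inner start. The ERG stretches at chr21:38660668-38660917, nearest the start of the gene, and at chr21:38584946-38585195 are not printed and hold neither motif. The ELK3 stretch at chr12:96255248-96255497, also not printed, holds neither as well. The ETV2 stretch lies at chr19:35641495-35641744 and the ELK3 stretch at chr12:96194125-96194374, both on the plus strand before the start of the gene.
ERG: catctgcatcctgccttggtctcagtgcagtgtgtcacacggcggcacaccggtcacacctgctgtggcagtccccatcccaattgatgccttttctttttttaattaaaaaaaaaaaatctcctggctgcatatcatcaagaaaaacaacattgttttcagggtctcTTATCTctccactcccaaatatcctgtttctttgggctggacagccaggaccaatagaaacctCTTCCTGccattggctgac
ETV2: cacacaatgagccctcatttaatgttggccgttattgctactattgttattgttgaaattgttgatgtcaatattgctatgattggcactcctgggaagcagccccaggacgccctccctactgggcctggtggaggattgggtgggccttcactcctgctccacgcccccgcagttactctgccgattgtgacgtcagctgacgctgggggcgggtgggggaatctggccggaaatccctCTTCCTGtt
ELK3: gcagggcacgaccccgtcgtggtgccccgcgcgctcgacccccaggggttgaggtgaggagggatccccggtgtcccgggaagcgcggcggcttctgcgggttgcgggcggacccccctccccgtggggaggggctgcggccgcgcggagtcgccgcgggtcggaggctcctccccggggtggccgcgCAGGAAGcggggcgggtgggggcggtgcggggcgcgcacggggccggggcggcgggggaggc

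RefSeq promoter stretches were matched for 7 of the 10 genes (14 stretches), and FLI1, ETS1 and SPI1 were not matched. CAGGAAG stood in 5 of the 14 stretches, against 10.48% of 35116 promoter stretches of the same length. AGATAA stood in 4 of 14 (9.17% of all stretches), CCGGAAG in 1 of 14 (8.52%) and the GC box GGGCGG in 6 of 14 (42.64%), each counted on both strands. CAATTA, the string counted as an MSX-type homeobox motif, stood in none of the 14 (6.7% of all stretches). Shorter homeobox strings were not counted, so this does not show that such sites are absent. Both ERG stretches at the inner start overlap each other and hold the same GATA-type and ETS-type motifs, so they are not separate cases. A match is only a string of letters in this window.

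In the genome 4 of the genes lie in pairs. In GENCODE 29, on GRCh38, ERG (chr21:38380027-38661780, minus strand) and ETS2 (chr21:38805307-38824955, plus strand) point away from each other, 143.5 kb apart, with the noncoding LINC00114 between them. ETS1 (chr11:128458761-128587558, minus strand) and FLI1 (chr11:128686535-128813267, plus strand) are arranged the same way, 99.0 kb apart. SPI1 lies on chromosome 11 from 47354860 to 47378576 on the minus strand, ELK3 on chromosome 12 from 96194382 to 96269835 on the plus strand, and ETV2 on chromosome 19 from 35641745 to 35644871 on the plus strand. ETV6 (chr12:11649854-11895402, plus strand), ELF1 (chr13:40932028-41061440, minus strand) and GABPA (chr21:25734570-25772460, plus strand) complete the set. These positions are from the annotation, matched by symbol, since the deposited table gives none and the submitters' processing notes name the build hg19. The use of strand in counting is not given in the sources used here, so FLI1 may share reads with the antisense RNA SENCR that overlaps it (mean of 8.47 FPKM), ELF1 with WBP4 (4.43 FPKM) and GABPA with ATP5PF, whose row in the table (ATP5J) had a mean of 124 FPKM.

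The levels of the 10 factors ran from the middle to the top of the tested rows. FLI1, a factor of endothelium and megakaryocytes, was the highest in every library, with 389 ± 36.3 FPKM in WT (SD, n = 2) and 348 ± 35.8 FPKM in MSX2-/- (SD, n = 4). ETS1, an endothelial and lymphoid activator, came next, with 239 ± 88.0 and 197 ± 54.8 FPKM. ERG, which keeps endothelial identity, had 104 ± 43.2 FPKM in WT, and ELK3, a repressor linked to the serum response, had 89.8 ± 12.6 FPKM, so these neighbours did not differ beyond their spread. Then followed ELF1 (25.2 ± 2.34), ETS2 (24.0 ± 11.0) and SPI1 (18.6 ± 7.08 FPKM in WT), also within each other's spread. ETV6, needed for blood formation in the marrow, had 8.31 ± 0.70 FPKM, GABPA, an activator of nuclear genes for mitochondria, 5.49 ± 0.32 FPKM, and ETV2 3.69 ± 3.01 FPKM, whose spread took in that of GABPA. By mean over all 6 libraries FLI1 was above 98.6% of the tested rows and GABPA above 41.5%.

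The sum over the 10 factors was 781 and 1034 FPKM in WT-1 and WT-2, 645 and 880 FPKM in 1#-1 and 1#-2, and 638 and 890 FPKM in 2#-1 and 2#-2. FLI1, ETS1, ERG and ELK3 together made up 87.0% to 91.2% of it in each library. The pool was thus made mostly of these factors in both genotypes, and which cells expressed them was not tested. SPI1 made up 1.74% and 2.29% of the sum in WT and 3.27% to 3.54% in MSX2-/-, and ERG made up 9.44% and 13.0% in WT and 7.71% to 9.91% in MSX2-/-.

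**Figure D1:**
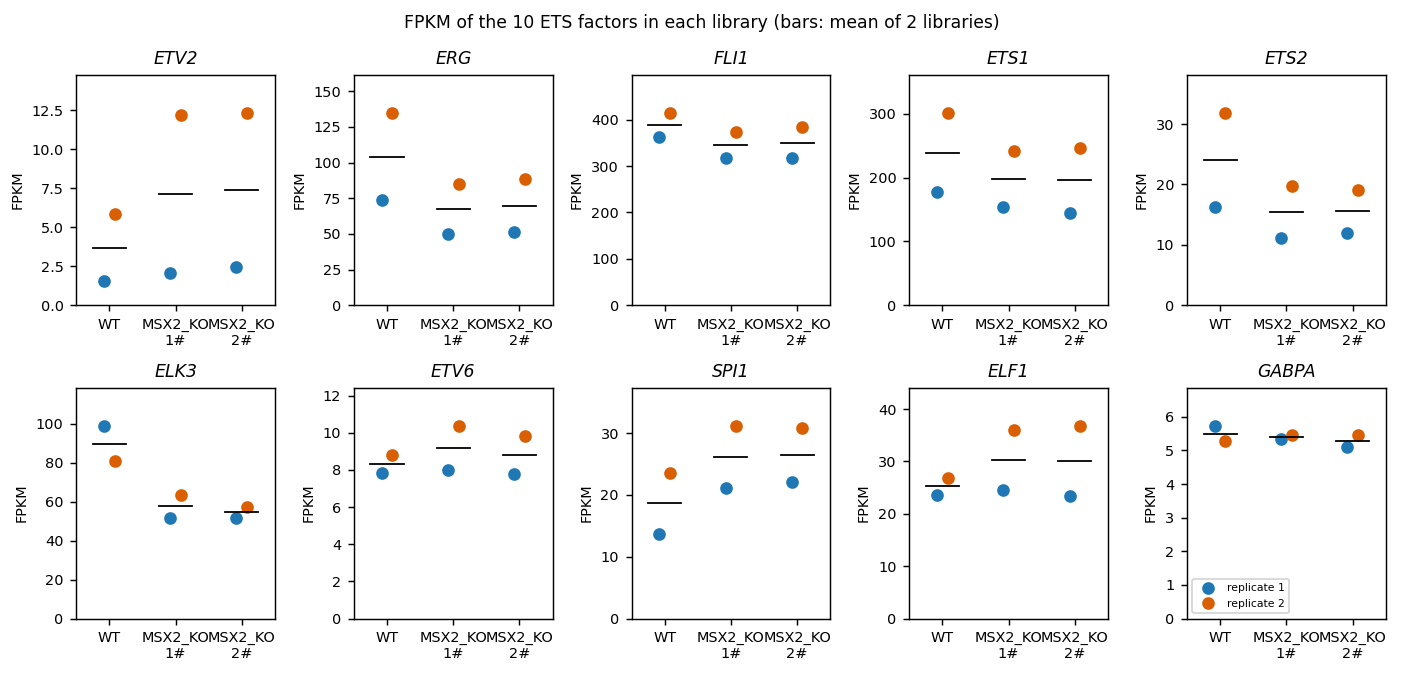
FPKM (vertical axis, linear, from 0, a scale of its own in each panel) of the 10 ETS factors in WT and in the MSX2-/- clones 1# and 2#, with blue points for replicate 1, orange points for replicate 2 and a bar at the mean of the 2 libraries. ELK3 is the 1 gene whose 4 MSX2-/- points all lie below both WT points, and in ETV2, ERG, ETS1, ETS2 and SPI1 the replicates lie far apart in every group.

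MSX2-/- was compared with WT first as 4 libraries against 2, with limma on log2(FPKM + 1) over all tested rows. In this fit none of the 10 factors passed an adjusted p of 0.05 (Benjamini-Hochberg), and 1, ELK3, had an unadjusted p under 0.05. Of all tested rows 1.28% were called. Libraries with the same replicate number deviated together, and with that number as a block limma called 5 of the 10, SPI1 higher and ERG, ETS1, ETS2 and ELK3 lower in MSX2-/-. With the block 9.85% of all tested rows were called, 6.11% higher and 3.74% lower. Genotype changes of these factors that are said to pass the test did so with the block only, and each fold change is on the log2(FPKM + 1) scale, which understates the change of low genes such as ETV2.

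ERG was at 73.7 and 135 FPKM in WT-1 and WT-2, at 49.8 and 85.0 FPKM in 1#-1 and 1#-2, and at 51.3 and 88.2 FPKM in 2#-1 and 2#-2. The groups overlapped, because replicate 2 of each clone stood above WT-1, yet each MSX2-/- library was below the WT library of its own number. The log2 fold change was -0.58, with a standard error of 0.34 without the block and 0.06 with it (limma, adjusted p = 0.613 and 0.00463). ERG thus fell to 0.667 of WT with the block, the smallest adjusted p among the 10 factors. It stayed under the threshold when any 1 library was left out of the fit with the block, with log2 fold changes from -0.63 to -0.54, but without the filter on low values its adjusted p was 0.0525 (limma). Without the block its log2 fold change ranged from -1.01 when WT-1 was left out to -0.15 when WT-2 was.

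ETS2, the neighbour of ERG on chromosome 21 and a nuclear target of RAS and MAPK signaling, was at 16.2 and 31.8 FPKM in WT, 11.1 and 19.7 FPKM in 1#, and 11.9 and 19.1 FPKM in 2# (replicates 1 and 2). Its pattern over the libraries was like that of ERG, with the groups overlapping through replicate 2. ETS2 fell by 0.58 on the log2 scale with a standard error of 0.09 (limma with the block, adjusted p = 0.0160; without it 0.35 and adjusted p = 0.627). With the block the call was kept without WT-1 or 2#-1 and lost without any of the other libraries (limma, adjusted p from 0.0606 to 0.0938). Without the block the log2 fold change was -1.04 without WT-1 and -0.11 without WT-2.

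ELK3 was at 98.7 and 81.0 FPKM in WT, 51.6 and 63.7 FPKM in 1#, and 51.8 and 57.1 FPKM in 2#. It was the 1 factor whose groups did not overlap, all 4 MSX2-/- libraries being below both WT libraries, as for 9.19% of all tested rows. The log2 fold change was -0.67, with a standard error of 0.12 with the block (limma, adjusted p = 0.0245) and 0.14 without it (limma, adjusted p = 0.0973). The difference from WT was -0.92 in both clones for replicate 1 and -0.34 and -0.50 for replicate 2. With the block the call was kept without WT-2 or 1#-2 and lost without any of the others, at adjusted p from 0.0676 to 0.0948 (limma), with log2 fold changes from -0.92 without WT-2 to -0.42 without WT-1.

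ETS1 was at 177 and 301 FPKM in WT, 154 and 242 FPKM in 1#, and 145 and 246 FPKM in 2#. All 4 MSX2-/- libraries were again below the WT library of their number, by 0.20 to 0.32 on the log2 scale. ETS1 fell by 0.27 with a standard error of 0.06 with the block (limma, adjusted p = 0.0366; without it adjusted p = 0.863). This was the smallest of the called changes, and no fit with the block that left out 1 library called it (limma, adjusted p from 0.0768 to 0.148). FLI1, its neighbour on chromosome 11, was at 363 and 415 FPKM in WT, 318 and 374 FPKM in 1#, and 317 and 384 FPKM in 2#, a log2 fold change of -0.16 that did not pass the test (limma with the block, adjusted p = 0.105; 95% interval -0.29 to -0.04).

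SPI1, the master factor of myeloid cells, moved the other way. It was at 13.6 and 23.6 FPKM in WT, 21.1 and 31.1 FPKM in 1#, and 22.0 and 30.9 FPKM in 2#. The groups overlapped, since replicate 1 of each clone was below WT-2, and all 4 MSX2-/- libraries were above the WT library of their number, by 0.37 to 0.66. SPI1 rose by 0.50 on the log2 scale with a standard error of 0.09 with the block, 1.42 times WT (limma, adjusted p = 0.0211; without it standard error 0.27 and adjusted p = 0.566). The call with the block was kept without WT-2, and leaving out any of the other 5 libraries gave adjusted p from 0.0597 to 0.0955 (limma). Without the block the log2 fold change was 0.13 without WT-1 and 0.88 without WT-2.

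ETV2, the short-lived initiator of the endothelial programme, was at 1.56 and 5.82 FPKM in WT, 2.06 and 12.2 FPKM in 1#, and 2.46 and 12.3 FPKM in 2#. Each MSX2-/- library was above its numbered WT library, by 0.25 and 0.43 in replicate 1 and by 0.95 and 0.97 in replicate 2. The log2 fold change of 0.65 missed the threshold (limma with the block, standard error 0.17, adjusted p = 0.0623; without it adjusted p = 0.867). It passed with the block when the pseudocount was 0.1 (log2 fold change 0.78, limma, adjusted p = 0.0421) and when WT-1 was left out (0.96, adjusted p = 0.0470), whereas without WT-2 the log2 fold change was 0.34.

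The other 3 factors gave no call in either fit. ETV6 lay between 7.79 and 10.4 FPKM over the 6 libraries (log2 fold change 0.10, limma with the block, adjusted p = 0.584), and ELF1 between 23.4 and 36.7 FPKM (0.22, adjusted p = 0.245). GABPA lay between 5.10 and 5.72 FPKM, the narrowest range of the 10, with a log2 fold change of -0.03 and a 95% interval from -0.29 to 0.22.

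Counted over the set, 5 factors (ERG, FLI1, ETS1, ETS2 and ELK3) were below the WT library of the same number in all 4 MSX2-/- libraries, as were 21.3% of all tested rows, and 2 (ETV2 and SPI1) were above it in all 4, as were 23.6%. The median log2 fold change of the 10 was -0.10, beside 0.01 over all tested rows.

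**Figure D2:**
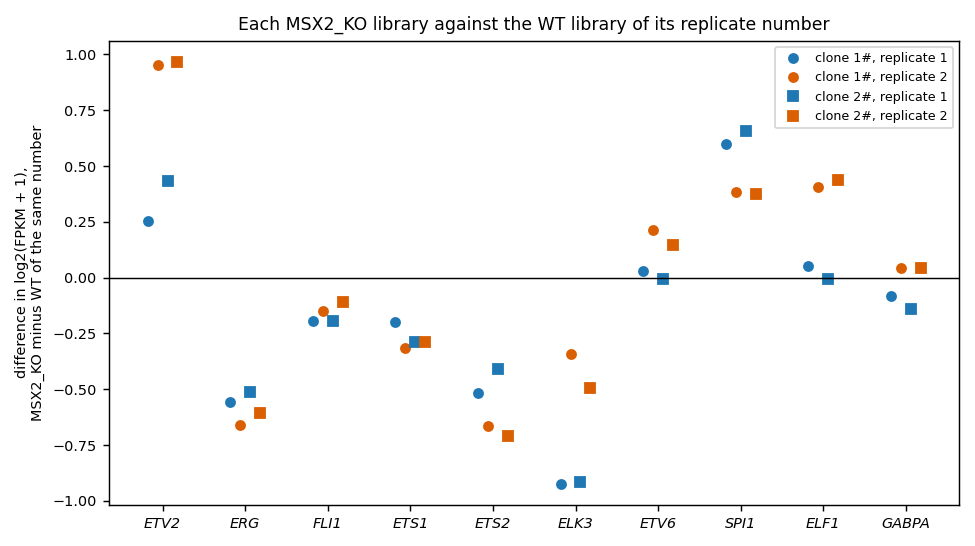
Difference in log2(FPKM + 1) between each MSX2-/- library and the WT library of its replicate number (vertical axis) for the 10 ETS factors, with circles for clone 1#, squares for clone 2#, blue for replicate 1 and orange for replicate 2. The 4 points of ERG, FLI1, ETS1, ETS2 and ELK3 all lie below 0 and those of ETV2 and SPI1 above it, and both clones of one number lie close together. The 2 points of one number share 1 WT library.

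The clones were next set against WT one by one. With the block, ERG was the 1 factor called in each, with a log2 fold change of -0.61 in 1# (limma, adjusted p = 0.0297) and -0.56 in 2# (limma, adjusted p = 0.0354), when 3.46% and 3.71% of all tested rows were called. Without the block no factor was called in either clone, with 0.00629% of rows called for each, and ELK3 was the 1 factor with an unadjusted p under 0.05. Both comparisons share the WT libraries. Between 2# and 1# no factor was called, and no row of the table was (0% of tested rows; limma, with and without the block, 0 factors at an unadjusted p under 0.05). For ERG the difference between the clones was 0.05 (95% interval -0.16 to 0.26 with the block), for SPI1 0.02 (-0.27 to 0.32), for ELK3 -0.07 (-0.45 to 0.31) and for ETV2 0.10 (-0.43 to 0.62), so a difference of the size seen against WT lay outside the interval for ERG, SPI1, ELK3 and ETV2.

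Replicate 2 against replicate 1, fitted together with genotype, gave a log2 fold change larger in size than that of MSX2-/- against WT in 8 of the 10 factors, all but ELK3 and GABPA. ETV2 rose the most, by 1.82 on the log2 scale with a standard error of 0.16 (limma, adjusted p = 0.00132), with raw FPKM 3.73 times higher in WT-2 than in WT-1, 5.93 times in 1# and 5.02 times in 2#. ERG rose by 0.80 (limma, adjusted p = 0.000998), ETS2 by 0.78 (adjusted p = 0.00230), ETS1 by 0.72 (adjusted p = 0.000998) and SPI1 by 0.59 (adjusted p = 0.00450). ELF1 rose by 0.45 (limma, adjusted p = 0.0183) and FLI1 by 0.23 (adjusted p = 0.0141). Hence 7 of the 10 factors were called, all higher in replicate 2, beside 34.6% of all tested rows called and 15.6% called higher.

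ETV6 had a log2 fold change of 0.26 that missed the threshold (limma, adjusted p = 0.0684) and passed it after the libraries were rescaled (0.30, adjusted p = 0.0485). ELK3 and GABPA stood apart, at 0.05 (limma, adjusted p = 0.761) and 0.00 (adjusted p = 0.984). Counted by library, 8 of the 10 factors were higher in replicate 2 in WT, in 1# and in 2#, as were 28.6% of tested rows, and the 2 exceptions were again ELK3 and GABPA, which were lower in WT-2 than in WT-1. What differed between the replicate numbers was not given, and its part in these values was not tested.

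**Figure D3:**
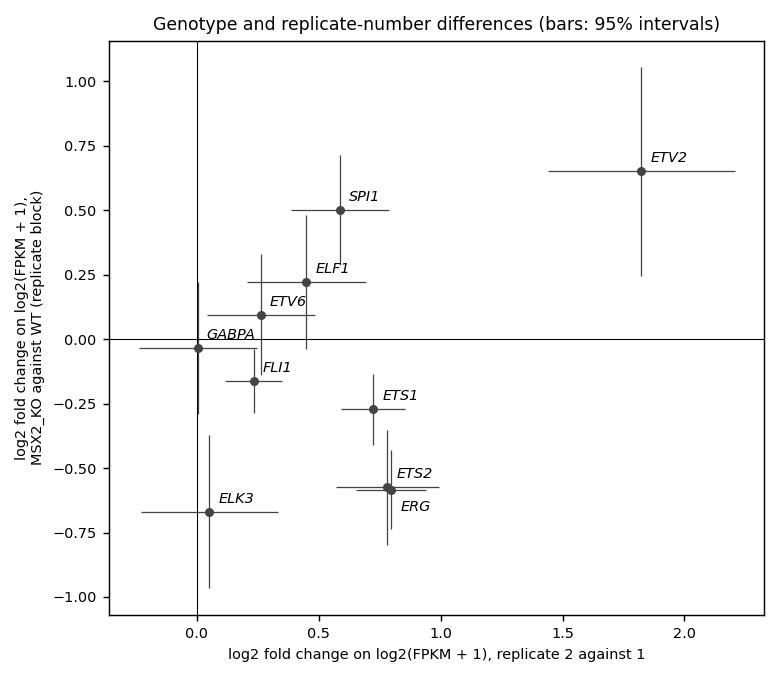
Log2 fold change of MSX2-/- against WT with the replicate block (vertical axis) plotted against that of replicate 2 over replicate 1 (horizontal axis), both on log2(FPKM + 1), with bars for 95% intervals from limma. ETV2 lies farthest to the right at 1.82, ERG and ETS2 lie together at the lower right, and ELK3 lies low near 0 on the horizontal axis.

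Whether the genotype difference itself depended on the replicate number was tested as an interaction. No factor passed (limma, Benjamini-Hochberg, 0.0189% of tested rows called), and 3 had an unadjusted p under 0.05. These were ELK3, whose log2 difference was less negative in replicate 2 by 0.50 (95% interval 0.15 to 0.85, adjusted p = 0.370, limma), ELF1 (0.40, 95% interval 0.08 to 0.72, adjusted p = 0.395) and ETV2 (0.62, 95% interval 0.06 to 1.17, adjusted p = 0.413). For ELF1 the MSX2-/- libraries differed from WT by 0.05 and -0.01 in replicate 1 and by 0.41 and 0.44 in replicate 2. ERG gave -0.10 (95% interval -0.37 to 0.17), the difference from WT being alike in size in the replicates.

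Ratios between 2 factors in the same library take out the overall scale of that library. SPI1 to ERG was 0.185 and 0.175 in WT, 0.424 and 0.366 in 1#, and 0.429 and 0.350 in 2#. It was the most even ratio across the replicates of WT and the groups did not overlap, with a log2 difference of 1.12 (exact permutation test over libraries, two-sided, p = 0.0667, Benjamini-Hochberg adjusted p = 0.1 over the 6 ratios). With 2 libraries against 4 there are 15 splits, so 0.0667 is the smallest p that this test can give.

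SPI1 to FLI1 was 0.0375 and 0.0570 in WT and 0.0664 to 0.0831 in MSX2-/- (log2 difference 0.69), and ETV6 to ERG was 0.106 and 0.0653 in WT and 0.112 to 0.161 in MSX2-/- (0.70). ETS2 to ETS1 was 0.0916 and 0.106 in WT and 0.0716 to 0.0824 in MSX2-/- (-0.33). For all 3 the groups did not overlap, and the exact permutation p was again the smallest possible, 0.0667. These are not all separate cases, since SPI1 to ERG and ETV6 to ERG share ERG, and SPI1 to FLI1 shares SPI1 with the first. How often ratios of other gene pairs in these libraries fail to overlap was not computed. FLI1 to ERG overlapped between the groups, at 4.93 and 3.08 in WT and 4.35 to 6.38 in MSX2-/- (0.43, exact permutation p = 0.267), and the log2 difference was 0.089 without WT-2 and 0.77 without WT-1. The permutation does not use the replicate numbers. Against the WT library of its number, FLI1 to ERG was higher in all 4 MSX2-/- libraries, by 0.33 to 0.52 on the log2 scale. ELK3 to ERG, 2 factors that both fell, ranged from 0.60 to 1.34 in WT and from 0.65 to 1.04 in MSX2-/- (-0.09, exact permutation p = 0.867), and its difference was -0.39 within replicate 1 and 0.21 within replicate 2.

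**Figure D4:**
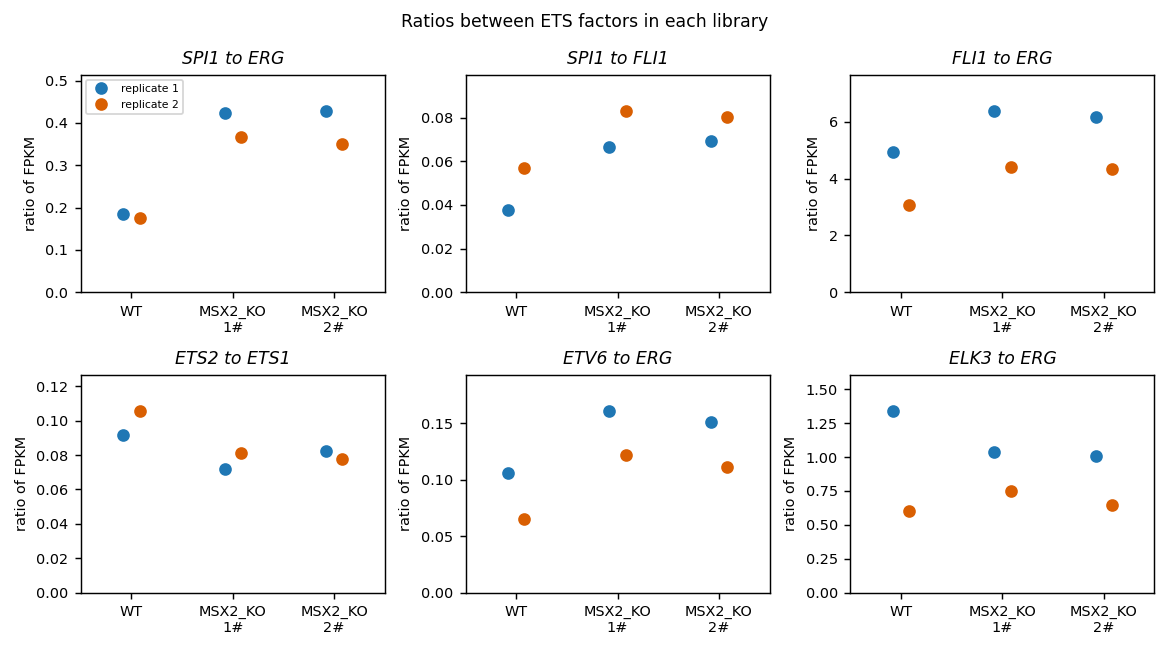
Ratio of FPKM between 2 ETS factors in each library (vertical axis, linear, from 0) for the 6 ratios tested, in WT and the MSX2-/- clones 1# and 2#, with blue for replicate 1 and orange for replicate 2. SPI1 to ERG lies at 0.175 and 0.185 in WT and between 0.350 and 0.429 in MSX2-/-, and ELK3 to ERG separates by replicate rather than by genotype.

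Markers of several cell types that the samples could hold also differed between the groups. The summed level of the 7 endothelial markers was 2326 and 2400 FPKM in WT and 1489 to 1821 FPKM in MSX2-/-. None of the 7 had a fold change above 0, 2 passed as lower without the block and 5 with it (limma). Of all tested rows 1.28% were called without the block, in either direction, and 3.74% were called lower with it. Set against that sum, ERG was at 3.17% and 5.62% in WT and at 3.27% to 4.84% in MSX2-/-, slightly above its numbered WT library in replicate 1 and below it in replicate 2, and ELK3 was at 3.37% and 4.25% in WT and 3.14% to 3.59% in MSX2-/-. FLI1, which was lower in FPKM, was higher on this scale, at 15.6% and 17.3% in WT and 20.8% to 21.3% in MSX2-/-, and ETS1 was above its numbered WT library in all 4. Since the sum itself was lower in MSX2-/-, this scale lifts genes whose FPKM did not change. GABPA was above its numbered WT library in all 4 by 0.45 to 0.51 on the log2 scale, against 0.29 to 0.45 for FLI1. ETV2, ETV6 and ELF1 were also above it in all 4. SPI1 was at 0.585% and 0.985% in WT and 1.38% to 1.76% in MSX2-/-. This scale was chosen after the values were seen, and the part of cell composition in the changes of ERG, ETS2, ELK3 and ETS1 was not tested.

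The erythroid markers (HBE1, HBZ, HBG1, ALAS2 and KLF1) summed to 54.9 and 58.5 FPKM in WT and to 140 to 334 FPKM in MSX2-/-, with 2 of 5, ALAS2 and KLF1, called higher with and without the block (limma). The globins rose mainly in replicate 1. HBE1 was at 36.6 and 24.4 FPKM in WT, 125 and 36.5 FPKM in 1#, and 164 and 35.9 FPKM in 2#. HBZ and HBG1 were above the WT library of the same number in replicate 1 and below it in replicate 2. The mesenchymal markers summed to 134 and 189 FPKM in WT and 369 to 414 FPKM in MSX2-/-, with 2 of 6 called higher without the block and 4 with it (limma). COL3A1, named after its values were seen, was the 1 mesenchymal marker below 0 (log2 fold change -0.54) and was not called. The myeloid markers, those nearest to the known role of SPI1, summed to 26.4 and 30.0 FPKM in WT and 21.8 to 26.7 FPKM in MSX2-/-, with 5 of 7 tested, none called higher and 1, AIF1, called lower with the block (limma). AIF1 carried the lower sum, since without it the other 6 summed to 9.42 and 9.50 FPKM in WT and 10.5 to 12.8 FPKM in MSX2-/-, a split made after the values were seen. Of the 7, CD14, CSF1R, ITGAM and MPO were at most at 1.24 FPKM in any library, and MPO was listed at 0 in both WT libraries. The blood progenitor markers summed to 202 and 325 FPKM in WT and 261 to 349 FPKM in MSX2-/-, most of it CD34. Of these 6 markers 5 were tested, none was called without the block, and with it 3 were called higher (limma), RUNX1, SPN (CD43, log2 fold change 0.81, adjusted p = 0.0282) and MYB (0.72, adjusted p = 0.0124). CD34 (0.04) and KIT (-0.30), named after their values were seen, were not called. Of the 4 lymphoid markers 2 were tested, as were all 4 endoderm and liver markers, and none was called with or without the block (limma). The cardiac, megakaryocyte and pluripotent markers had no call without the block and 1 called higher in each list with it (limma). These were NKX2-5 (0.88, adjusted p = 0.00407), GP1BA (0.76, adjusted p = 0.0150) and LIN28A (0.45, adjusted p = 0.0143). The cardiac markers summed to 31.7 and 42.4 FPKM in WT and 51.5 to 86.5 FPKM in MSX2-/-. Beside these counts, 1.28% of all tested rows were called without the block, and 6.11% were called higher and 3.74% lower with it. The part of these markers in the change of SPI1 was not tested.

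The wider ETS family and genes known to be bound by ETS factors were described by lists written with earlier results known. Of 18 other ETS genes 10 were tested, and with the block 3 were called (limma), beside 9.85% of all tested rows. ELK1, a partner of SRF, rose from 21.0 and 21.7 FPKM in WT to 27.8 to 34.9 FPKM in MSX2-/- (log2 fold change 0.48, limma with the block, adjusted p = 0.0268). ETV1 fell from 11.3 and 7.06 FPKM to 2.09 to 4.29 FPKM (-1.27, limma with the block, adjusted p = 0.00291), and ETV4, of the same subfamily, fell from 65.3 and 40.8 FPKM to 27.6 to 47.3 FPKM (-0.51, adjusted p = 0.00799). None of the 10 was called without the block. ETV5, the third gene of that subfamily, was at 20.8 and 27.0 FPKM in WT and 17.7 to 19.0 FPKM in MSX2-/-, without passing the test. The median of the 10 was -0.17, beside 0.01 over all tested rows. ETV1 and ETV4 were also lower in replicate 2 than in replicate 1, by 0.63 and 0.71, the opposite of ERG and ETS1.

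Of 23 endothelial genes with known ETS sites, all tested, 19 had a fold change below 0, and the median was -0.30. The 7 endothelial markers above are among these 23, so the calls of CDH5, KDR, TIE1, TEK and ESAM are counted in both places. Without the block 3 were called lower (CLDN5, TIE1 and CDH5), and with it 9 were called lower and 1 higher (limma), beside 3.74% and 6.11% of all tested rows. CLDN5, a tight junction protein and known ERG target, fell from 115 and 96.0 FPKM in WT to 17.1 to 28.2 FPKM in MSX2-/-, a log2 fold change of -2.28 (limma, adjusted p = 0.0121 without the block). ICAM2, an adhesion molecule, fell from 79.9 and 77.1 FPKM to 27.8 to 51.0 FPKM (limma with the block, adjusted p = 0.0196), followed by CLEC14A, an endothelial lectin (-0.86, adjusted p = 0.00184), and the angiopoietin receptor TEK (-0.84, adjusted p = 0.0170). ENG, a TGFβ co-receptor named here after its values were seen, was the 1 gene called higher, from 90.9 and 91.0 FPKM in WT to 129 to 160.0 FPKM (0.70, limma with the block, adjusted p = 0.00977). CLEC14A shared with ERG the large rise in replicate 2, from 96.5 to 250 FPKM in WT.

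Of 20 myeloid genes controlled by SPI1, 12 were tested and the median fold change was 0.14. Without the block none was called, and with it 3 were called higher and 2 lower (limma), beside 6.11% and 3.74% of all tested rows. LAPTM5, a lysosomal protein of blood cells, rose from 53.3 and 96.4 FPKM in WT to 110 to 169 FPKM in MSX2-/- (0.91, limma with the block, adjusted p = 0.00226). The signaling adaptors FCER1G (0.80, limma with the block, adjusted p = 0.0499) and TYROBP (0.60, adjusted p = 0.0266) also rose. CSF2RB, the shared receptor chain for GM-CSF, fell (-0.79, limma with the block, adjusted p = 0.0215), as did the tetraspanin CD53 (-0.59, adjusted p = 0.0475), a gene named after its values were seen. SPI1 and LAPTM5 were both higher in replicate 2, and CSF2RB was lower there by 0.84.

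Of 9 megakaryocyte genes controlled by FLI1, 6 were tested, with a median of 0.52, and with the block 1 was called higher and none lower (limma), beside 6.11% and 3.74% of all tested rows. It was GP1BA, a receptor subunit for von Willebrand factor (0.76, adjusted p = 0.0150). Of 10 mitochondrial genes with GABPA sites, the median was 0.12 and 1 was called with the block, near the 9.85% of all tested rows. It was TFB2M, a factor for mitochondrial transcription (0.52, limma with the block, adjusted p = 0.0374). Neither list had a call without the block.

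Of 23 partners and cofactors of ETS factors 21 were tested, with a median of 0.02. Of these 1 was called without the block, beside 1.28% of all tested rows, and with it 3 were called higher and 1 lower, beside 6.11% and 3.74% (limma). GATA2, which binds beside ETS factors at blood enhancers, rose from 55.8 and 59.7 FPKM in WT to 127 to 167 FPKM in MSX2-/- (1.28, limma, adjusted p = 0.0152 without the block). With the block RUNX1, the factor that drives blood formation from endothelium, rose by 1.25 (limma, adjusted p = 0.00163), TAL1 rose by 0.64 (adjusted p = 0.0253) and FOXC1, which acts with ETV2 in vessel formation, fell by 1.12 (adjusted p = 0.00799). TAL1 and RUNX1 were also higher in replicate 2, by 0.63 and 0.96 on the log2 scale, as SPI1 was.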

How the data were processed

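The authors deposited 1 table of FPKM values with a column per library and did not pool replicates. The design text names TopHat and Cufflinks, and the submitters' processing notes name BWA, Bowtie, RSEM and hg19. Which of them made the table, the versions and the annotation are not given in the sources used here. Of its rows 58364 held values and 1, with headings only, was left out. FPKM is relative to the library total, so a few abundant genes can shift all others, and Cufflinks-type values keep no read counts, so no detection floor is given.

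Values were taken as log2(FPKM + 1) for the 15895 rows with a mean of at least 0.5 FPKM and fitted with limma 3.58.1 in R 4.3.3 (empirical Bayes with a mean-variance trend, two-sided, Benjamini-Hochberg over all rows tested, threshold 0.05). The fits were MSX2-/- against WT, each clone against WT and against the other (3 groups), replicate 2 against 1 beside genotype, and their interaction. The study's RNA-seq methods name no test across genes and no block, so the fit without a block was the main design. The labels give WT and both clones replicate numbers 1 and 2, and deviations of same-numbered libraries from their group means correlated at 0.51 (WT and 1#), 0.54 (WT and 2#) and 0.64 (1# and 2#), so the numbers were taken to pair the libraries and the blocked value is printed beside each result it changes. Ratios were compared by exact permutation over the 15 splits, without the replicate numbers. Clones are named as in the table, since the labels number them 7 and 10 without saying which is which.

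Gene positions are from GENCODE 29, in which 97.0% of the 56595 symbols were found, and promoter stretches from RefSeq. The fit of MSX2-/- against WT, with and without the block, was run on simulated data with noise drawn separately for each library. That check asked only for the right sign of planted changes with the block. The other fits and the ratios were not simulated. Alternatives were the block, a pseudocount of 0.1, no filter, rescaled libraries, 3 groups and leaving out each library. The same alternatives with the block, levels per summed endothelial markers, and the myeloid sum without AIF1, were added after seeing the data. The 10 genes and all lists were chosen with earlier results of these data known. All 10 genes are named for MSX2-/- against WT and for the comparison of the replicate numbers. For each clone against WT, between the clones and for the interaction, all 10 were tested but Results gives values for only some. Of each list at most the 4 genes that changed most and were called with or without the block are named. Exceptions are marked in the text. Some list genes are not reported here, and the list counts and marker sums leave them out.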

Additional observations from a re-analysis of the deposited data

How the results depend on the processing

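With the replicate block, rows called for MSX2-/- against WT went from 204 to 1566 and factors from 0 to 5, and rows called for 1# and 2# against WT went from 1 each to 550 and 590, with 1 factor, ERG, in each. The block changed no other call of the factors between genotypes. Without the filter on low values 98 rows were called for MSX2-/- against WT, and 153 rows and 0 factors with the block. That setting also gave 43 rows for 1#, 93 for 2#, 49 between the clones, 1478 for replicate 2 against 1 and 1461 for the interaction. It adds rows near 0 FPKM to the tests and to the trend of the variance, and the cause was not tested. With 3 groups 6 rows were called for MSX2-/- against WT. A pseudocount of 0.1 gave 0 rows for 1# and for the interaction and 1 between the clones. Rescaling moved the median of all rows by at most 0.02 on the log2 scale. Single factors moved more for replicate 2 against 1, where ERG went from 0.80 to 0.84 and GABPA from 0.00 to 0.04.

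Leaving out 1 library at a time, where an arm with 1 library is assumed to vary like the others, gave 11 to 76 rows and 0 factors for MSX2-/- against WT, 0 to 1 rows for each clone, 0 to 2 between the clones, 3091 to 4707 rows and 5 to 7 factors for replicate 2 against 1, and 0 rows for the interaction (which could not be fitted without a WT library). With the block it gave 665 to 899 rows and 1 to 3 factors, and ERG was called each time. Several fold changes that did not pass the test changed sign. Without the block the ranges were -0.055 to 1.36 for ETV2, -0.65 to 0.11 for ETS1 and -0.084 to 0.016 for GABPA in MSX2-/-, the ends being those without WT-1 or WT-2. They were -0.45 to 1.66 for ETV2, -0.64 to 0.13 for ETS1, -0.045 to 0.29 for ETV6, -0.039 to 0.50 for ELF1 and -0.070 to 0.029 for GABPA in 1#, and -0.27 to 1.67 for ETV2, -0.67 to 0.094 for ETS1, -0.081 to 0.22 for ETV6, -0.099 to 0.53 for ELF1 and -0.098 to 0.0020 for GABPA in 2#. Between the clones they were -0.96 to 1.15 for ETV2, -0.34 to 0.43 for ERG, -0.12 to 0.15 for FLI1, -0.41 to 0.35 for ETS1, -0.36 to 0.42 for ETS2, -0.22 to 0.075 for ELK3, -0.22 to 0.12 for ETV6, -0.25 to 0.29 for SPI1, -0.33 to 0.30 for ELF1 and -0.069 to 0.014 for GABPA. For replicate 2 against 1 they were -0.041 to 0.22 for ELK3 and -0.028 to 0.055 for GABPA. With the block only GABPA changed sign (-0.11 to 0.043). The log2 difference of the ratio SPI1 to FLI1 ranged from 0.39 to 0.99 and that of ETV6 to ERG from 0.35 to 1.05 (without WT-1 or WT-2). That of ELK3 to ERG ranged from -0.67 to 0.49, and it was 0.21 within replicate 2. The number of reads is unknown, so the precision of low values such as ETV2 rests on 2 and 4 libraries alone.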
